A study of Mus musculus with 96 samples.

Results

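From the Cyp3a subfamily 7 of the 21990 genes of the expression table were taken as members, Cyp3a11, Cyp3a13, Cyp3a16, Cyp3a25, Cyp3a41a, Cyp3a44 and Cyp3a59. They were named by gene symbol and not by a cut on measured values, but earlier results of these data were known. The table holds 2 other rows with a Cyp3a symbol, Cyp3a57 and Cyp3a41b, which are not members. All 7 members belonged to the 20155 genes that had values. RNA of the liver and of the pancreatic islets had been sequenced from 48 male C57BL/6N mice that were bought at 4 weeks of age. The mice were fed a chow diet (CD, LabDiet 5001, 13.5% fat) or a high-fat diet (HFD, Research Diets D12492, 60% fat), and 4 mice of each diet were taken at weeks 4, 8, 12, 16, 20 and 24, so that there were 24 CD and 24 HFD livers. The labels name no transgene, deletion or drug in either group. The CD is a grain-based chow and not the low-fat match of the HFD, so that fat content and other ingredients of the diets cannot be told apart.

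Cytochrome P450 3A enzymes are membrane proteins of the endoplasmic reticulum that oxidise steroids, bile acids and many drugs, and they take their electrons from the reductase Por. Their genes in hepatocytes are induced through the nuclear receptors PXR (gene Nr1i2) and CAR (gene Nr1i3), which bind DNA together with RXR at hexamers related to AGGTCA. Cyp3a11 is the leading form of the adult male mouse liver. Cyp3a41a and Cyp3a44 are known as female-biased forms and Cyp3a16 as a form of the fetal and newborn liver, while Cyp3a13 is also known from the intestine.

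Expression was given as FPKM, fragments per kilobase of transcript scaled to the mapped fragments of the library, which lets levels of different genes be set side by side. The FPKM of all genes summed to between 560016 and 672369 in the liver libraries. The table gives no read counts, and the depth behind a value is unknown. Alb, the albumin gene that defines hepatocytes, had a mean of 31802 FPKM in CD livers and 30292 FPKM in HFD livers, as the tissue label requires. In bulk tissue, fewer cells of a type and less RNA per cell cannot be told apart.

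All 7 genes lie on chromosome 5. In the coordinates of the table (GRCm38.p5), Cyp3a13 stands alone at 137892933 to 137921619 on the minus strand, and the other 6 form a cluster. Cyp3a11 spans 145854607 to 145879854, Cyp3a41a spans 145694049 to 145720136 and Cyp3a44 spans 145773983 to 145805874, all on the minus strand. The models of Cyp3a25 (minus strand, 145977194 to 146096576) and Cyp3a59 (plus strand, 145977286 to 146115990) overlap along most of their length, since the authors added 15 transcripts to Cyp3a25 and 10 to Cyp3a59. In the RefSeq annotation of GRCm38.p6 these genes lie apart, from 145977192 to 146009644 and from 146079208 to 146114978. Whether the counting used the strand is not given in the sources used here. Reads of Cyp3a25 and Cyp3a59 may therefore be shared between them in the table. The model of Cyp3a16 in the table also reaches beyond its RefSeq end at 145469740. It runs from 145436309 to 145584732 on the minus strand, with 2 added transcripts, and covers Cyp3a41b (145558664 to 145584732, same strand).

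Sequence likeness was also high between Cyp3a25 and Cyp3a59. Of all stretches of 50 bases in the longest coding GENCODE transcript, 25% of those of Cyp3a25 were also found in Cyp3a59, and 72% of those of Cyp3a59 were found in no other gene. Cyp3a11 had 85.2% of its stretches to itself and Cyp3a13 had 100%. The transcript of Cyp3a41a had only 1.39% to itself, because 93.7% of it was shared with its copy Cyp3a41b, and reads of these genes are hard to place. The promoters, taken as the 250 bases before and 50 bases after the RefSeq start site, were 95.7% identical between Cyp3a25 and Cyp3a59 and 93% identical between Cyp3a41a and Cyp3a44.

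The 100 bases beginning 200 bases before the start site are shown for the 4 genes that were well expressed in liver and for Cyp3a44, a low neighbour of Cyp3a11, because the hexamers AGGTCA and AGTTCA, letters of the kind that PXR and CAR bind, were found there in each of these genes but Cyp3a13, which had none. Capitals mark each hexamer on either strand, so that TGACCT and TGAACT are the same letters read from the other strand. The sequences are those of RefSeq in GRCm38.p6, read 5′ to 3′ in the direction of the gene.
Cyp3a11, chr5:145879955-145880054, minus strand: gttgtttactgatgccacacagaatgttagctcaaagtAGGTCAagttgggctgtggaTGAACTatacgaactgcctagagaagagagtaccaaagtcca
Cyp3a25, chr5:146009719-146009818, minus strand: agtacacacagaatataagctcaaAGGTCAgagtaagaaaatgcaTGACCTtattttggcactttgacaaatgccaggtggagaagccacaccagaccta
Cyp3a59, chr5:146079058-146079157, plus strand: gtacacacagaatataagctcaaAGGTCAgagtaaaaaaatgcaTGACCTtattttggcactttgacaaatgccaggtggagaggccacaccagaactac
Cyp3a13, chr5:137921720-137921819, minus strand: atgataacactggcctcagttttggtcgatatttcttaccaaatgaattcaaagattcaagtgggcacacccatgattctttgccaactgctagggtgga
Cyp3a44, chr5:145805975-145806074, minus strand: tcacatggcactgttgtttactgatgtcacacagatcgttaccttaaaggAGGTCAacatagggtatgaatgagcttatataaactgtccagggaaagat

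Within the whole 300 bases, Cyp3a11, Cyp3a25 and Cyp3a59 each held 2 hexamers on opposite strands. Cyp3a41a and Cyp3a44 held 1, and Cyp3a13 and Cyp3a16 held none. Of the Cyp3a genes that are not members, Cyp3a57 also held 2 on opposite strands, and Cyp3a41b held 1. Cyp3a57 reached at most 1.02 FPKM in liver, so that 2 hexamers were not particular to the well expressed genes. In Cyp3a11 the AGGTCA began 162 bases before the start site and the AGTTCA, on the other strand, ended 137 bases before it. At least 1 of the hexamers stood in 27.7% of the 32851 promoters of the RefSeq set, and 2 or more stood in 5.23%. No gene of the family held 2 of the hexamers on the same strand with 3 or 4 bases between them. None held 2 that point away from each other with 6 bases between them. Such exact pairs were rare, in 4, 9 and 3 of the 32851 promoters. Hexamers and pairs were matched by letters in a short window, and distal elements were not searched.

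Only 4 of the 7 genes were expressed above 1 FPKM in liver. Cyp3a11 had a median of 481 FPKM over the 48 livers (range 79.0 to 1489.9), Cyp3a25 had 247 FPKM (63.1 to 565), Cyp3a13 had 78.5 FPKM (40.8 to 154) and Cyp3a59 had 19.0 FPKM (5.15 to 68.5). By median, Cyp3a11 stood at rank 149 of all genes in the liver, Cyp3a25 at rank 332, Cyp3a13 at rank 876 and Cyp3a59 at rank 2652. The order was not the same in all mice. Cyp3a11 was above Cyp3a25 in 24 of 24 CD livers but in 19 of 24 HFD livers, and Cyp3a25 was above Cyp3a13 in 24 of 24 CD livers and in 20 of 24 HFD livers. In mouse HFD614 at week 24 Cyp3a13 was the most abundant of the family, at 142 FPKM against 120.4 for Cyp3a25 and 79.0 for Cyp3a11. Cyp3a13 was also the most abundant in mouse HFD518 at week 20, at 115.3 FPKM against 99.7 for Cyp3a11 and 73.8 for Cyp3a25.

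The other 3 members were close to the lowest value the table can hold. Cyp3a44 reached at most 0.16 FPKM and was above 0 in 32 of 48 livers, Cyp3a41a reached 0.15 FPKM and was above 0 in 24 livers, and Cyp3a16 reached 0.05 FPKM and was above 0 in 13 livers. The lowest value of Cyp3a44 above 0 was 0.02 FPKM, found in 14 livers. With values of 2 decimals, steps of single reads could not be resolved. None of these 3 passed the filter of 1 FPKM, and they were left out of the tests described next. In the fit without a filter, over 18453 genes, Cyp3a44 was called lower in HFD livers in the mean over the 6 weeks, with a log2 difference of -0.05 (SE 0.01, limma adjusted p = 0.00255), and Cyp3a16 (adjusted p = 0.186) and Cyp3a41a (adjusted p = 0.900) were not. In that fit 4.68% of genes were called lower. The means of Cyp3a44 behind it were from 0.015 to 0.0875 FPKM in CD livers and from 0.005 to 0.0425 FPKM in HFD livers over the weeks. Among the rows of the table with a Cyp3a symbol that are not members, Cyp3a57 ranged from 0.02 to 1.02 FPKM in liver and Cyp3a41b from 0 to 0.18 FPKM.

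**Figure D1:**
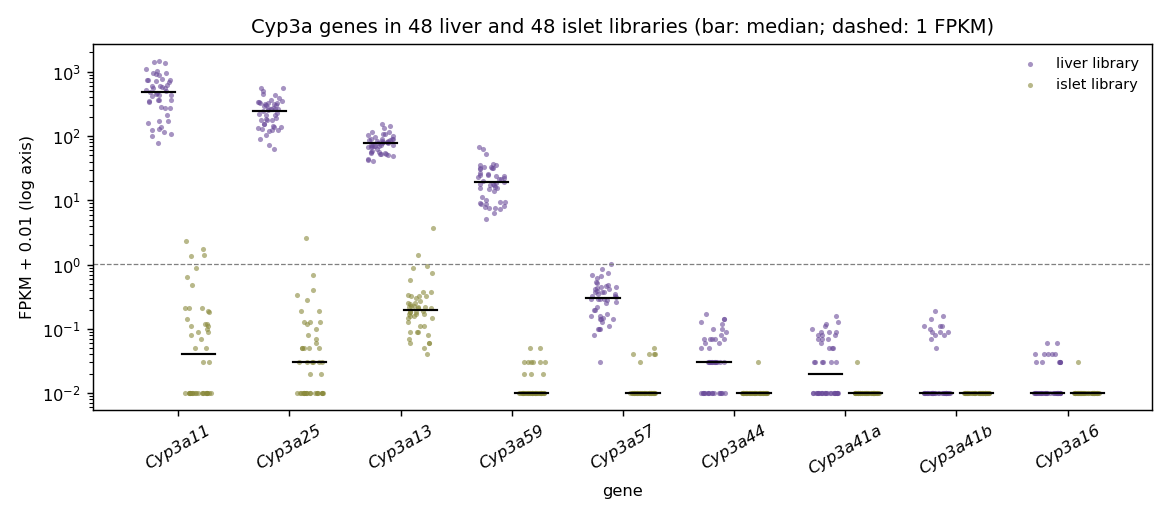
FPKM of the 9 Cyp3a genes of the table, with 0.01 added, on a log axis, in each of 48 liver and 48 islet libraries, where bars are medians and the dashed line is 1 FPKM. Cyp3a11, Cyp3a25, Cyp3a13 and Cyp3a59 stand between 5.15 and 1489.9 FPKM in every liver, and the other 5 genes lie at or below 1.02 FPKM.

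The main question of the design was whether the diet changed the liver, and at which weeks. Cyp3a11, the most abundant member, had lower HFD than CD means at each week. At week 4 the CD livers had 276, 334, 361 and 740.3 FPKM and the HFD livers had 108, 114.4, 124 and 129 FPKM. At week 8 the CD livers had 551, 624, 722 and 919.6 FPKM and the HFD livers had 162, 351, 433 and 434 FPKM. Every HFD liver was below every CD liver at both times. At week 12 the values were 596, 1105, 1373 and 1489.9 FPKM in CD mice and 287, 494, 698 and 762 FPKM in HFD mice, and at week 16 they were 955, 968, 1013 and 1411 FPKM in CD mice and 474, 519, 735 and 899 FPKM in HFD mice. The groups overlapped at week 12, through a CD mouse at 596 FPKM, and did not at week 16. At week 20 the CD livers had 447, 489, 595 and 751 FPKM and the HFD livers had 99.7, 139, 173 and 586 FPKM. At week 24 the CD livers had 362, 369, 417 and 567 FPKM and the HFD livers had 79.0, 169, 212.5 and 269 FPKM. The overlap at week 20 came from a single mouse, HFD511, while the other 3 HFD livers lay below all CD livers.

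Cyp3a25, the member next in level, was lower in HFD livers with more overlap. CD livers at week 4 had 142, 182, 219 and 439.6 FPKM, and HFD livers had 102, 124, 125 and 214 FPKM. CD livers at week 8 had 272, 311, 321 and 396 FPKM, and HFD livers had 179.8, 209.6, 278 and 337 FPKM. These early groups overlapped, most of all at week 8, where an HFD mouse at 337 FPKM was above 3 of the 4 CD mice. CD livers at week 12 had 266, 320.0, 365 and 550.3 FPKM against 154, 155, 267 and 297 FPKM in HFD livers, and CD livers at week 16 had 342, 447, 507.2 and 565 FPKM against 225, 302, 332 and 345 FPKM in HFD livers. At both times the groups overlapped by a narrow margin. CD livers at week 20 had 192, 245, 263 and 325 FPKM against 63.1, 73.8, 137 and 179 FPKM in HFD livers. CD livers at week 24 had 136, 181, 250.1 and 299.6 FPKM against 90.3, 120.4, 129.5 and 133 FPKM in HFD livers. The groups did not overlap at weeks 20 and 24, although at week 24 the lowest CD liver and the highest HFD liver were 136 and 133 FPKM.

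Cyp3a59 had lower levels and a wider spread. For week 4, the CD values were 15.3, 18.7, 20.1 and 68.5 FPKM and the HFD values were 7.61, 7.99, 8.08 and 14.8 FPKM. For week 8, the CD values were 19.4, 22.1, 27.0 and 35.7 FPKM and the HFD values were 8.95, 14.1, 23.6 and 36.0 FPKM. The groups were apart at week 4 and mixed at week 8, where an HFD mouse had the highest value of all. For week 12, the CD values were 21.2, 25.4, 32.4 and 63.0 FPKM and the HFD values were 9.32, 11.2, 22.9 and 33.4 FPKM. For week 16, the CD values were 31.3, 32.0, 37.3 and 52.5 FPKM and the HFD values were 16.4, 24.8, 25.1 and 30.6 FPKM. The groups overlapped at week 12 and were apart at week 16. For week 20, the CD values were 17.0, 17.2, 23.8 and 33.0 FPKM and the HFD values were 5.15, 6.45, 8.66 and 15.5 FPKM. For week 24, the CD values were 7.52, 17.9, 18.2 and 21.5 FPKM and the HFD values were 7.28, 8.61, 9.28 and 10.1 FPKM. The groups were apart at week 20 and overlapped at week 24 through mouse CD606 at 7.52 FPKM, which was also the lowest CD liver for Cyp3a11 and Cyp3a25 at that time.

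Cyp3a13, the member outside the cluster, gave a different picture. Its CD livers ranged from 42.0 to 84.6 FPKM at week 4 and its HFD livers from 43.1 to 78.5 FPKM. At week 12 the ranges were 78.6 to 84.3 FPKM in CD mice and 53.1 to 89.7 FPKM in HFD mice, and at week 24 they were 72.7 to 154 FPKM and 89.3 to 142 FPKM. In each of the 6 weeks the ranges of the diets overlapped.

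**Figure D2:**
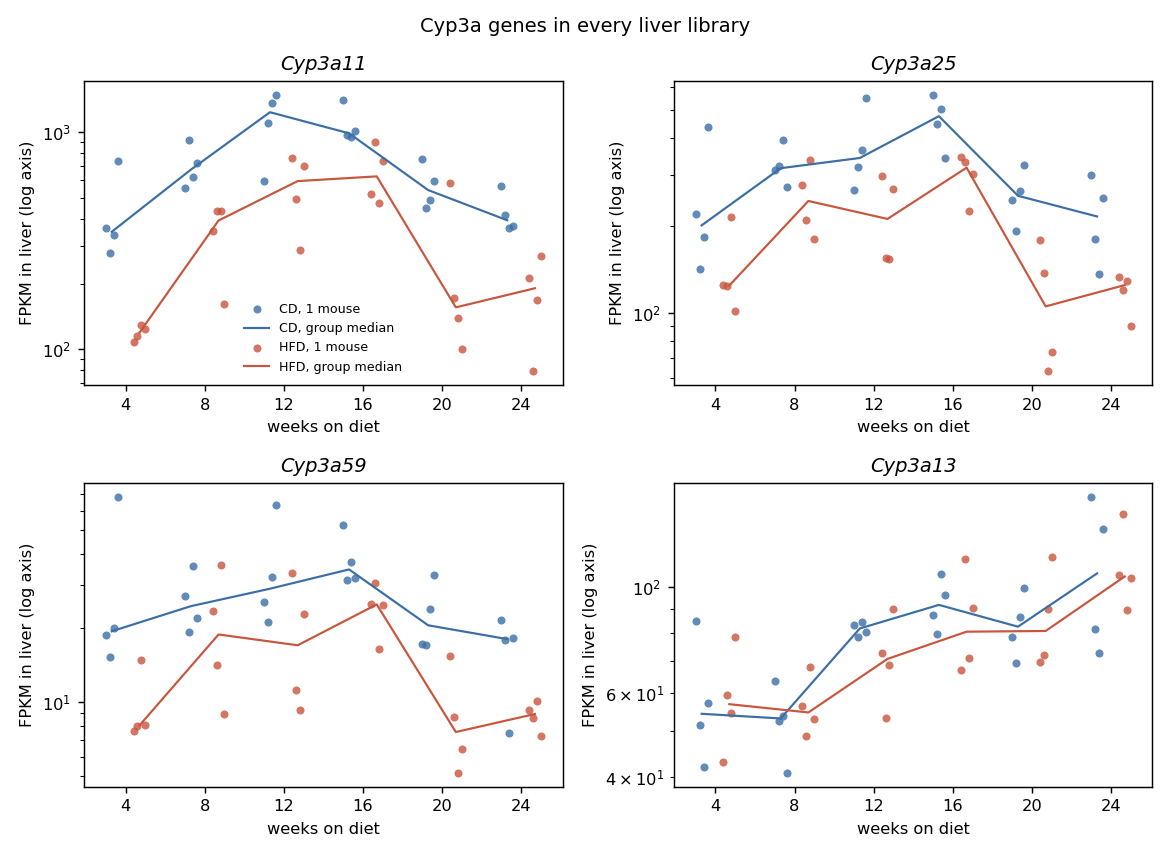
FPKM in liver (log axis) of the 4 expressed Cyp3a genes against weeks on diet, with 1 point per mouse and lines through the group medians. HFD points of Cyp3a11 lie below all CD points at weeks 4, 8, 16 and 24, whereas points of both diets are mixed in every week for Cyp3a13.

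Counted over the 4 expressed members, every HFD liver was below every CD liver in 2 members at weeks 4, 16, 20 and 24, in 1 at week 8 and in 0 at week 12. Over all genes tested in the same livers this held for 2.03%, 3.69%, 3.49%, 1.97%, 2.51% and 1.92% of genes, in the order of the weeks. The HFD effect was then estimated in each week with limma on log2(FPKM + 1), where 1 is a pseudocount, with p-values adjusted by Benjamini-Hochberg over all genes tested. No member passed an adjusted p of 0.05 in any week, and 2, 1, 2, 3, 3 and 3 members had an unadjusted p under 0.05 at weeks 4, 8, 12, 16, 20 and 24. Among all genes, an unadjusted p under 0.05 was found for 1271 of 9875, 2271 of 10034, 3021 of 9955, 2290 of 10113, 1562 of 10184 and 1587 of 10152. The same fit without the trend and robust variances also called 0 members in each week. Of all genes tested, 0.0101%, 1.33%, 1.22%, 0.682%, 0.746% and 0.187% were called lower in HFD in these weeks.

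The closest to a weekly call was Cyp3a11 at week 4, with a log2 difference of -1.74 ± 0.27 (SE, n = 4 per diet, limma adjusted p = 0.0594). Its differences in the later weeks were -1.10 ± 0.32, -1.04 ± 0.38, -0.75 ± 0.21, -1.52 ± 0.51 and -1.34 ± 0.34. Mean HFD FPKM was 27.7% of the CD mean at week 4 and 60.4% at week 16, the smallest and the largest share. For Cyp3a25 the log2 differences from week 4 to week 24 were -0.72, -0.40, -0.79, -0.62, -1.27 and -0.82, with SE from 0.18 to 0.35. For Cyp3a59 they were -1.35, -0.46, -0.90, -0.64, -1.31 and -0.73, with SE from 0.21 to 0.47. Those of Cyp3a13 were between -0.22 and 0.11, with SE from 0.14 to 0.24, and their sign turned negative at weeks 4, 20 and 24 when libraries were scaled by median ratios. The calls at week 20 depended on a single library and on how the spread was estimated. Without mouse HFD511, Cyp3a11 (log2 -2.06, adjusted p = 0.00315), Cyp3a25 (-1.53, adjusted p = 0.0254) and Cyp3a59 (-1.59, adjusted p = 0.0160) were all called at week 20. Estimating the spread from all 48 livers, in place of the 8 of a week, called Cyp3a11 at weeks 4, 20 and 24 and all 3 of these genes at week 20. The shares of all genes called in these alternative fits are not given here.

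**Figure D3:**
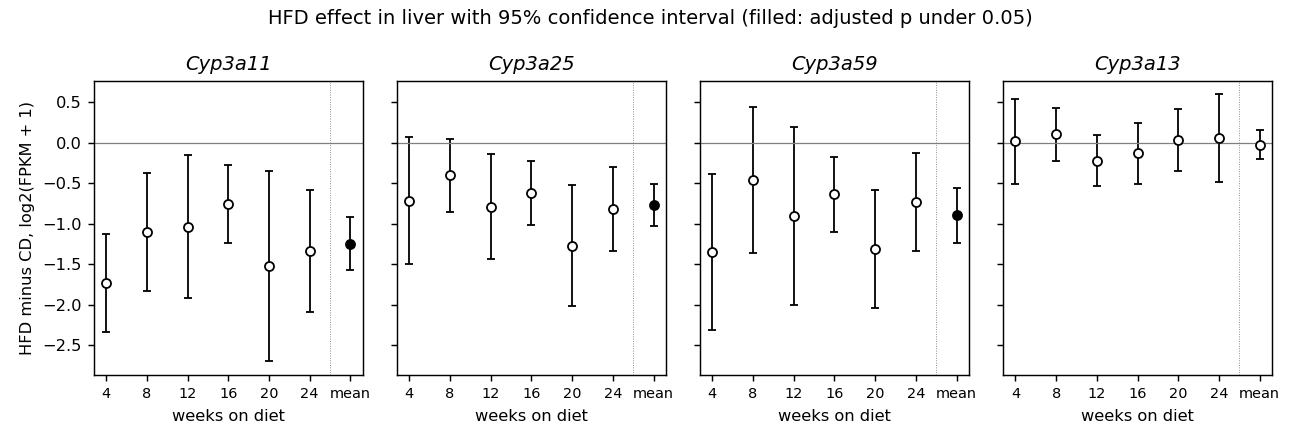
Difference between HFD and CD livers in log2(FPKM + 1) for the 4 expressed Cyp3a genes in each week (n = 4 per diet) and as the mean over the 6 weeks (n = 24 per diet), with 95% confidence intervals and filled points where the adjusted p is under 0.05. All weekly estimates of Cyp3a11, Cyp3a25 and Cyp3a59 lie below 0 and those of Cyp3a13 between -0.22 and 0.11.

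Averaged over the 6 weeks in a single fit of all 48 livers, 3 of the 4 tested members fell in HFD mice and 0 rose. Cyp3a11 fell by 1.25 on the log2 scale (SE 0.16, 95% confidence interval -1.57 to -0.92, limma adjusted p = 9.01e-08), which is a ratio of 0.421. Cyp3a59 fell by 0.90 (SE 0.17, -1.24 to -0.56, adjusted p = 4.12e-05), a ratio of 0.536. Cyp3a25 fell by 0.77 (SE 0.13, -1.03 to -0.52, adjusted p = 5.51e-06), a ratio of 0.586. For Cyp3a13 the difference was -0.02 (SE 0.09, -0.20 to 0.15, adjusted p = 0.852). In this fit without scaling of the libraries, a mean change of more than 0.20 in either direction lay outside the interval. Among the 10879 genes tested, 6.78% were called lower in HFD and the median difference was 0.08. In that fit 3892 genes were called higher and 738 lower, whereas scaling by median ratios gave 2306 higher and 1834 lower, or 16.9% of genes lower. The 3 members kept their calls under this scaling, with differences of -1.34, -0.98 and -0.86 for Cyp3a11, Cyp3a59 and Cyp3a25, and Cyp3a13 was then at -0.11 (adjusted p = 0.361). They also kept their calls when all libraries of any single week were left out.

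The size of the diet difference was compared between weeks. From the early weeks (4, 8 and 12) to the late weeks (16, 20 and 24) the HFD effect moved by 0.09 (95% interval -0.57 to 0.74) for Cyp3a11, by -0.27 (-0.78 to 0.24) for Cyp3a25, by 0.01 (-0.67 to 0.69) for Cyp3a59 and by 0.02 (-0.33 to 0.37) for Cyp3a13. No member was called in limma, the smallest adjusted p being 0.852, with 0.175% of all genes called. An unadjusted p under 0.05 was found for 0 members and for 860 of all 10879 genes. The test of diet by week over all 6 times called no member either (adjusted p from 0.798 to 0.955), with 1.46% of all genes called. In that test 0 members and 1606 of all 10879 genes had an unadjusted p under 0.05. For Cyp3a11, Cyp3a25 and Cyp3a59 the intervals from early to late weeks reach 0.69 or more in size, close to the mean effect of Cyp3a25 (-0.77). Shifts of that size, in at least 1 direction, were therefore not excluded for these genes.

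Levels also differed between weeks among CD mice. The group median of Cyp3a11 went from 348 FPKM at week 4 to 1239 FPKM at week 12, 3.56 times higher, and that of Cyp3a25 from 201 FPKM at week 4 to 477 FPKM at week 16, with lower values again at weeks 20 and 24. In HFD mice the medians of both were highest at week 16, at 627 and 317 FPKM. Cyp3a13 followed another course, with CD medians from 53.1 FPKM at week 8 to 106.6 FPKM at week 24 and HFD medians from 54.6 to 105.0 FPKM at the same times. Across the 6 weeks in CD livers, Cyp3a11 (limma F test, adjusted p = 0.00415), Cyp3a13 (adjusted p = 0.000879) and Cyp3a25 (adjusted p = 0.0122) were called and Cyp3a59 was not (adjusted p = 0.105). Of all genes, 55% were called in this test. Age, weeks on diet and the day of tissue collection cannot be told apart here, and the 3 members called are read against that share.

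The 3 genes that fell also varied together between mice. Over the 48 livers, Pearson's r of log2(FPKM + 1) was 0.94 between Cyp3a25 and Cyp3a59, 0.85 between Cyp3a11 and Cyp3a25 and 0.83 between Cyp3a11 and Cyp3a59. With group means removed, r was 0.90, 0.63 and 0.63. In 8 of the 12 groups the same mouse was the highest for all 3 genes, as with CD106 at week 4 and HFD511 at week 20, and in 6 groups the same mouse was the lowest. Cyp3a13 had r of 0.04 with Cyp3a11, -0.01 with Cyp3a25 and 0.01 with Cyp3a59, and -0.03, 0.21 and 0.26 with group means removed. Values of a library share its scaling, and the part of the overlapping models and shared bases in the r of Cyp3a25 with Cyp3a59 was not tested.

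**Figure D4:**
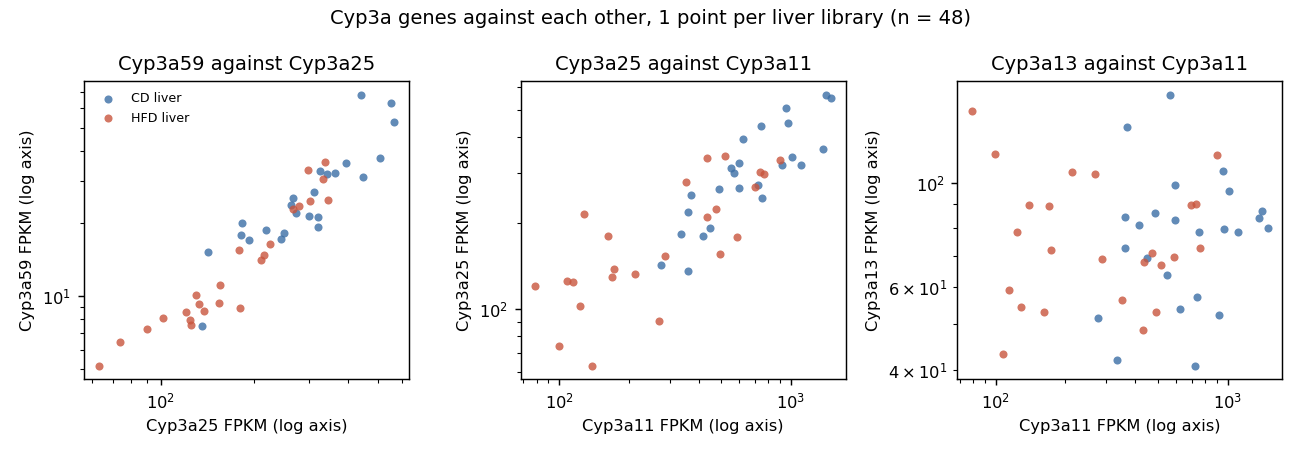
Each point is a liver library (48 in all, log axes), with FPKM of Cyp3a59 against Cyp3a25, of Cyp3a25 against Cyp3a11 and of Cyp3a13 against Cyp3a11. The first pair lies close to a line (r = 0.94), the next is looser (r = 0.85), and the last shows no trend (r = 0.04).

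The family total followed the abundant members. The summed FPKM of the 7 genes was 763 ± 370 in CD and 328 ± 57.3 in HFD livers at week 4, and 1683 ± 294 and 1068 ± 255 at week 16 (mean ± SD, n = 4). HFD means were from 43.0% (week 4) to 63.4% (week 16) of CD means over the 6 weeks. Cyp3a11 made up 56.1% ± 2.18 of the total in CD livers at week 4 and 36.6% ± 3.70 in HFD livers, where the groups did not overlap. At the other 5 times its share was also lower on average in HFD livers, for instance 69.0% ± 5.66 against 63.7% ± 5.92 at week 12, but the groups overlapped. These shares were not tested, and the ratio of Cyp3a11 to Cyp3a25 had a median of 2.20 in CD and 1.55 in HFD livers.

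In islets the family was near the floor. Over the 48 islet libraries the medians were 0.19 FPKM for Cyp3a13, 0.03 FPKM for Cyp3a11 and 0.02 FPKM for Cyp3a25, and 0 for the other 4 members. A member reached 1 FPKM in 4 islet libraries. Mouse HFD118 at week 4 had the highest islet values, with 3.68 FPKM of Cyp3a13, 2.57 FPKM of Cyp3a25 and 2.35 FPKM of Cyp3a11. That library also had the highest value of Fabp2, a fatty acid binding protein gene of enterocytes that the liver expresses too, at 41.6 FPKM against a median of 0.02 FPKM over islets, while its Alb was 4.24 FPKM. Mouse HFD313 at week 12 had 1.72 FPKM of Cyp3a11, with the highest islet Alb, 48.8 FPKM, against a median of 0.84 FPKM. Mouse CD407 at week 16 had 1.42 FPKM of Cyp3a11 and 1.41 FPKM of Cyp3a13 with 6.89 FPKM of Alb, and mouse CD505 at week 20 had 1.35 FPKM of Cyp3a11 with 0.24 FPKM of Alb. Fabp2 in these last libraries was 2.49 and 2.93 FPKM. The part of liver or gut RNA in these values was not tested.

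Genes that act with the family were described in the same mean over the 6 weeks. Of 22 tested regulators of Cyp3a transcription, 7 were higher and 1 lower in HFD livers (median log2 difference 0.08, against 0.08 for all genes). Of all genes tested, 35.8% were called higher and 6.78% lower, and after median ratio scaling 21.3% were higher and 16.9% lower, and the counts of this and the following lists are read against these shares. The receptor genes themselves were not called without scaling, with -0.09 for Nr1i2 (PXR, 35.1 and 32.8 FPKM in CD and HFD livers, adjusted p = 0.323) and -0.06 for Nr1i3 (CAR, 125 and 120.5 FPKM, adjusted p = 0.747). After median ratio scaling Nr1i2 was called lower, at -0.18 (adjusted p = 0.0466), and Nr1i3 was not, at -0.15 (adjusted p = 0.402). Ppara, the fatty acid sensor, rose by 0.35, and of the liver transcription factors Foxa1 rose by 0.25 and Foxa3 fell by 0.21. Under that scaling 6 of the 7 higher regulators lost their calls, Foxa1 among them, and Ppara stayed higher. The 3 regulators then called lower were Nr1i2, Foxa3 (-0.30) and Hnf4a (-0.23). Of 8 genes for electron transfer and haem supply, 4 were higher and 0 lower (median 0.13), namely Hmox1, the haem-degrading oxygenase (0.68), Cyb5b (0.21), Pgrmc1 (0.16) and Fech (0.09), and scaling left only Hmox1. Por was at -0.24 (adjusted p = 0.396).

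Other genes known as targets of PXR and CAR went either way. Of 15 tested, 4 were higher and 4 lower (median -0.04). The carboxylesterase gene Ces2a fell by 1.21 and the glutathione transferase gene Gsta2 fell by 1.08, whereas Gsta1 rose by 1.15 and the aldehyde dehydrogenase gene Aldh1a1 rose by 0.51. Among genes known to be higher in male liver, 9 of 14 fell and 0 rose (median -0.61), or 10 and 0 after median ratio scaling, with Hsd3b5 at -2.70, Serpina1e at -1.77, Cyp4a12b at -1.17 and C8b at -0.87. Of 11 genes known to be higher in female liver, 6 rose and 3 fell (median 0.46), with Cyp2b9 at 4.21, Cyp2b13 at 1.55 and Cyp2a4 at 1.42 among those that rose and Cyp2c40 at -1.53 among those that fell. The female-biased members Cyp3a41a and Cyp3a44 were at most 0.15 and 0.16 FPKM in livers of either diet.

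**Figure D5:**
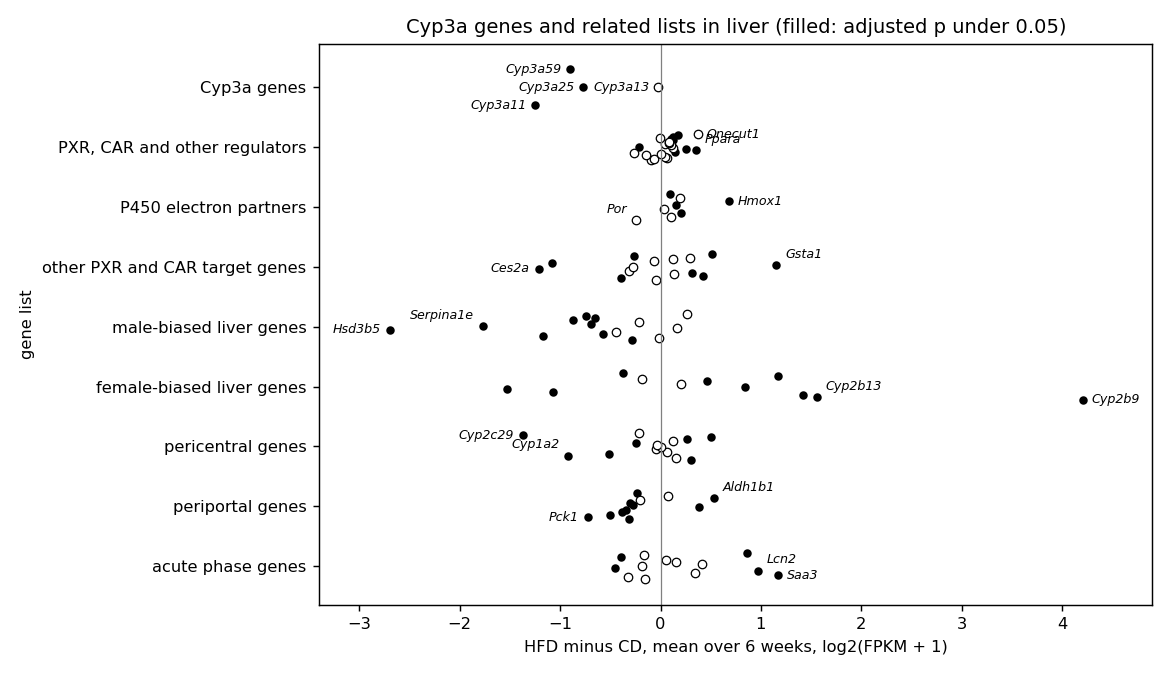
Mean difference between HFD and CD livers over the 6 weeks in log2(FPKM + 1), with 1 point per tested gene, for the 4 expressed Cyp3a genes and 8 related gene lists, filled where the adjusted p is under 0.05. Cyp3a11, Cyp3a59 and Cyp3a25 are at -1.25, -0.90 and -0.77, and 9 of 14 male-biased genes are filled and below 0.

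Where a gene sits along the liver lobule and which cells the tissue holds were described by lists as well. Of 14 pericentral genes, the zone where P450 genes are mostly expressed, 3 rose and 4 fell (median -0.02), with Cyp2c29 at -1.37, Cyp1a2 at -0.92, Oat at -0.51 and Lect2 at 0.50. Of 12 periportal genes 2 rose and 8 fell (median -0.29), with Pck1 at -0.72, Aldh1b1 at 0.53, Hal at -0.50 and Sds at -0.38. Of 13 acute phase genes 3 rose and 2 fell (median 0.05), with Saa3 at 1.17, Lcn2 at 0.97, Steap4 at 0.86 and Orm1 at -0.45. Hepatocyte markers summed to between 49838 and 85986 FPKM in CD livers and between 47403 and 71794 FPKM in HFD livers, and of 9 markers 3 fell, Tat (-0.54), Fgb (-0.40, also in the acute phase list) and Serpina1c (-0.21). All 8 stellate and fibroblast markers rose (Col1a1 by 1.36), with sums of 30.5 to 105.2 FPKM in CD and 58.7 to 176 FPKM in HFD livers, and 5 of 8 macrophage markers rose (Cd68 by 0.93), with sums of 37.7 to 139 and 46.9 to 189.8 FPKM. After median ratio scaling 6 and 4 of these were called. Of 7 endothelial markers 1 rose (Lyve1), of 3 cholangiocyte markers 1 rose (Spp1, not called after scaling), and the 1 tested marker of T and B cells was not called. Of 5 intestine and pancreas markers only Fabp2 rose, by 1.06. The part of these cell types in the fall of the Cyp3a genes was not tested.

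The genes whose levels tracked each member most closely over the 48 livers were taken among the 10875 other genes tested. For Cyp3a11 they were Slco1a4, an organic anion transporter (r = 0.70), Gm20594 (0.70) and the P450 gene Cyp2j9 (0.69), and r was 0.63, 0.32 and 0.57 after group means were taken off. For Cyp3a25 they were Dpyd, the enzyme that starts pyrimidine breakdown (0.84), the glucuronosyltransferase gene Ugt2a3 (0.81) and Eif4a2 (0.80). With group means removed, r was 0.81, 0.51 and 0.60. Cyp3a59 had Slco1a4 (0.79), Etnppl (0.75) and Dpyd (0.74), so that Cyp3a11 and Cyp3a25 each had a gene in common with it. Its r was 0.72, 0.62 and 0.70 with group means removed. Slco1a4 was also among the 15 tested targets of PXR and CAR, where it was not called (-0.32, limma adjusted p = 0.161). Cyp3a13 had Cd302 (0.87), Fgl1 (0.80) and Kng2 (0.77), none of them among those of the other members. With group means removed these were 0.71, 0.61 and 0.60. These values describe 48 libraries that share scaling and group differences.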

How the data were processed

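By the study's methods, poly(A) RNA of liver and islets was sequenced on a BGISEQ-500. The authors deposited a table of FPKM values with 2 decimals, 1 column per mouse and tissue. The submitters' processing notes list HISAT2 2.0.4, Bowtie2 2.2.5, RSEM 1.1.12, DESeq2 and GRCm38.p5. Columns of the authors' own comparisons, means and clusters were not used, and 1835 genes had no values.

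The members and gene lists were chosen with earlier results of these data known. Genes reaching 1 FPKM in 4 or more libraries were tested on log2(FPKM + 1) with limma 3.58.1 (R 4.3.3, trend and robust variances) over the 8 livers of a week, and over all 48 livers for the mean over weeks, late minus early, diet by week and weeks in CD. An adjusted p under 0.05 was a call. FPKM depends on all other genes of a library and hides depth, and fold changes of low genes are understated by the pseudocount. The fits were tested on simulated data. All members were described, at most 4 called genes of each list with the largest mean difference were named, and the 3 genes of highest Pearson's r with each member. A gene that this rule names among the regulators is not reported here. Nr1i2, Nr1i3, Por and the cell markers were named after their values were seen. Sequences came from RefSeq (GRCm38.p6), where all 7 members matched, and GENCODE, read with Python 3.11.15 and Biopython 1.88. Alternatives were a pseudocount of 0.1, no filter, median ratio scaling, plain limma, a fold threshold, leaving out each mouse, sums of like genes and, chosen after seeing the data, leaving out each week.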

Additional observations from a re-analysis of the deposited data

Results flagged for a closer look

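Of the 48 groups of 4 livers formed by the 4 expressed members, 4 held a mouse that stood far from the other 3 of its group by Dixon's test, which compares its gap to the nearest mouse with the range of the group. Chance alone gives about 1 in 20 such groups if values spread normally and groups are independent. Here FPKM was taken without logs, and Cyp3a11, Cyp3a25 and Cyp3a59 varied together between mice. At week 16, mouse CD401 had 1411 FPKM of Cyp3a11 against 955 to 1013 FPKM in the other CD livers. At week 20, mouse HFD511 had 586 FPKM of Cyp3a11 against 99.7 to 173 FPKM, and its Cyp3a25 (179 FPKM) and Cyp3a59 (15.5 FPKM) were also the highest of the group. At week 4, mouse CD106 had 68.5 FPKM of Cyp3a59 against 15.3 to 20.1 FPKM, and mouse HFD114 had 14.8 FPKM of Cyp3a59 against 7.61 to 8.08 FPKM. In all 4 the value was the highest of its group.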

How the results depend on the processing

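For the mean over the weeks, Cyp3a11, Cyp3a25 and Cyp3a59 were called under each alternative fit that tested them, with differences from -1.35 to -1.15, from -0.86 to -0.67 and from -0.99 to -0.81, and 1 of the 3, Cyp3a11, also had an absolute log2 difference of at least 1. Sums of FPKM over genes, which were not tested, gave -0.79 for Cyp3a25 with Cyp3a59 and Cyp3a57, -1.25 for Cyp3a11 with Cyp3a16, Cyp3a41a, Cyp3a41b and Cyp3a44, and -0.91 for Cyp3a11 with all other members. Without the filter on low values Cyp3a44 was called as well. Weekly calls were less stable. A fit of all 48 livers called 1 member at week 4, 3 at week 20 and 1 at week 24 in place of 0. Median ratio scaling called 1 at week 16, where 1.22% of all genes were called lower. For weekly calls in the fit of all 48 livers and in fits without a mouse, the shares of all genes called are not given here. Leaving out each mouse gave 0 to 1 members at weeks 4, 8, 12, 16 and 24 and 0 to 3 at week 20. The mice whose removal gave 1 call in place of 0, or 3 for HFD511, were CD101 and CD106 (week 4, Cyp3a11), HFD217 (week 8, Cyp3a11), CD304 (week 12, Cyp3a11), HFD414 (Cyp3a11), CD407 and HFD411 (week 16, Cyp3a25), HFD511 (week 20) and CD606 (week 24, Cyp3a59), and the cause was not tested. Signs turned only among values that were not called. Cyp3a13 was -0.060, -0.039 and -0.028 at weeks 4, 20 and 24 under median ratio scaling and 0.016 for the mean without week 12. With each mouse left out it ranged from -0.13 to 0.20 at week 4, -0.0089 to 0.20 at week 8, -0.11 to 0.13 at week 20, -0.12 to 0.24 at week 24 and -0.052 to 0.0080 for the mean. Late minus early ranged from -0.090 to 0.21 for Cyp3a11, -0.043 to 0.081 for Cyp3a13 and -0.15 to 0.11 for Cyp3a59. No paired analysis was possible because CD and HFD mice share no numbers. Without read counts, the precision that depth gives to the low members is unknown.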
